A study of Homo sapiens with 7 samples.

Results

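The late phase of recovery from mild heat is described here by 2 of the study's 7 arrays, 1 from cells collected 12 h after heating at 42 °C and 1 from cells collected 6 h after it. The cells were HSC-3, an established human line grown from a squamous carcinoma of the tongue. Both cultures compared had been heated at 42 °C for 90 min and then returned to 37 °C, for 6 h on one side and for 12 h on the other. The remaining 5 arrays hold the unheated control at 37 °C, the 42 °C culture collected at once (0 h), and the 44 °C cultures collected after 0, 6 and 12 h. The labels name no genetic change and no drug in any culture. The control and 42 °C, 0 h arrays are used below for levels alone, and the 44 °C arrays for a comparison of their own.

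Each condition has 1 array, so a difference between 12 h and 6 h has no replicate check, no error and no p-value, and the number of arrays limits the precision. A value is the intensity of a probe set, in the linear units the authors deposited. A probe set is a group of probes on the array meant to read a transcript, and some match more than 1. Values below a floor of 21.35, the median of all values of the 7 arrays, were set to the floor for differences. Levels below it are printed as deposited, and a fold against such an array is a lower bound, given as "at least". A gene was tested if it reached the floor on either array, and it was called bright if its higher value reached 4 times the floor. "Rose" and "fell" are kept for genes that differed by 2-fold or more as deposited, after quantile normalization of the 7 arrays and after a shift that aligned the medians. Signed differences are log2 values, 12 h minus 6 h.

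Heat unfolds proteins, and the transcription factor HSF1 answers by inducing chaperones of the HSP70, HSP40, HSP90 and small heat shock protein families, whose transcripts decline again once proteins are refolded. A second pathway, the integrated stress response, runs through kinases that phosphorylate the translation factor eIF2 alpha. Bulk translation then slows while the transcription factor ATF4 is translated, and ATF4 with its partners turns on genes of amino acid uptake and synthesis, of redox control and of growth arrest, and the factor CHOP, which is encoded by DDIT3. The unfolded protein response of the endoplasmic reticulum (ER) shares that branch and has others that raise ER chaperones through ATF6 and XBP1.

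The 2 arrays were close to each other for most genes. Of 12601 genes tested, 9845 (78.1%) differed by less than 0.5 log2 units, and the median difference was -0.04. Under all 3 scalings 171 genes rose, which is 1.36% of those tested, and 153 fell, which is 1.21%. As deposited the counts were 171 higher (1.36%) and 268 lower (2.13%). Among genes past 2-fold the share of higher ones was 39.0% as deposited, 51.8% after the median shift and 56.6% after quantile normalization, so the balance of rises and falls depends on the scaling. Of 9017 bright genes, 85 rose (0.943%) and 97 fell (1.08%). Of the risen genes, 50 were below the floor at 6 h, and 44 of the fallen genes were below it at 12 h.

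**Figure D1:**
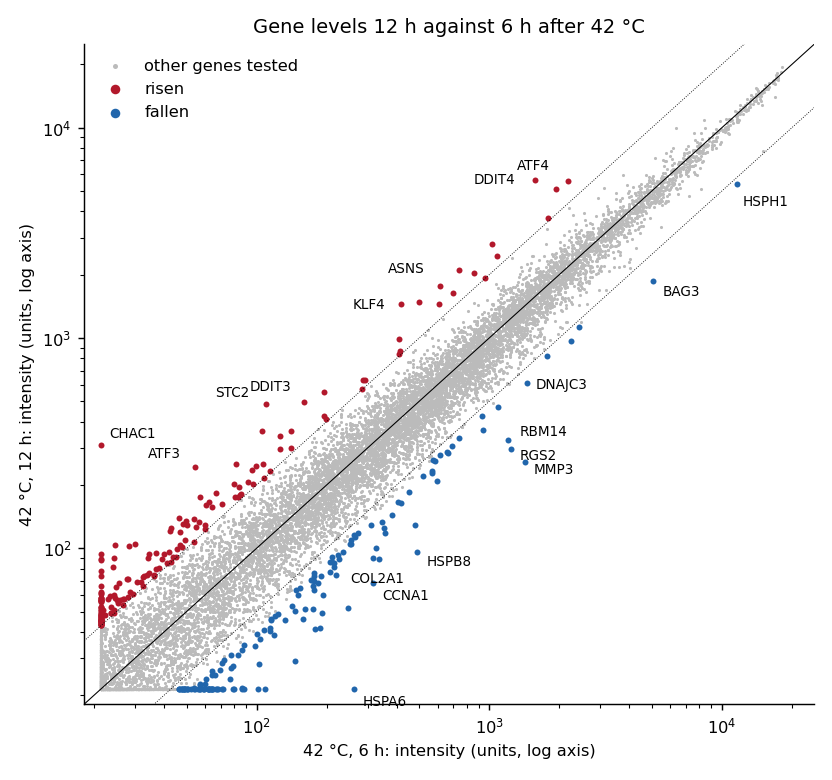
Level of each tested gene on the 42 °C, 12 h array (y axis) against the 42 °C, 6 h array (x axis), both in intensity units on log axes, with values below the floor of 21.35 drawn at the floor. Red points are the 171 risen genes, blue points the 153 fallen genes, the solid line marks equal levels and the dotted lines 2-fold; CHAC1 and HSPA6 lie farthest from the line.

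CHAC1, ATF3 and STC2, all on the lists of the ATF4 pathway, had the 3 largest rises among the genes named. LINC02806, C5orf34, EEF2KMT and TNFSF18, described below with other functions, came next. The ATF4 lists held 13 of the 171 risen genes, and control by ATF4 was not measured. The RNA came from whole cultures, so more responding cells and more RNA per cell cannot be told apart. CHAC1, an enzyme that degrades glutathione, was at 99.5 units in the control, 50.03 at 0 h, 3.61 at 6 h and 310 at 12 h. It was the only one of the named ATF4 genes below the floor at 6 h, and it rose at least 14.5-fold, on its 1 probe set. ATF3, a stress-induced repressor of the same family as ATF4, was at 76.6 in the control, 219 at 0 h, 54.4 at 6 h and 243 at 12 h, a rise of 4.48-fold. Its other probe set above the floor went from 43.0 to 64.2 and did not pass. The level on the first was thus high at 0 h and at 12 h and low between them. The choice of large rises favours a low value on the 6 h array, and with 1 array such a dip has no replicate. STC2, a secreted glycoprotein induced by ER stress, was at 138, 198, 110 and 483 in the same order and rose 4.401-fold, and its other probe set also passed 2-fold. DDIT4, an inhibitor of the growth kinase mTORC1, was at 2875 in the control, 689 at 0 h, 1566 at 6 h and 5626 at 12 h and rose 3.59-fold.

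ATF4 itself, at 3843 units in the control, 3694 at 0 h and 2176 at 6 h, reached 5596 at 12 h, a rise of 2.57-fold. DDIT3 was at 182, 119, 160 and 498, and rose 3.12-fold. CEBPB, which encodes a leucine zipper factor that pairs with ATF4 and CHOP, was at 3127, 1873, 1932 and 5109, and rose 2.64-fold. TRIB3, a pseudokinase that CHOP and ATF4 induce and that restrains them, was at 697, 499, 958 and 1920. It passed 2-fold narrowly, with a difference of 1.003, and its other probe set went from 120 to 312. Each of these factors was higher at 12 h than on the other 3 arrays, the control included. Of 10 tested members of the core list of ATF4 and CHOP factors, 5 rose and none fell, and all 10 had a difference above 0, with a median of 0.75 against -0.04 over all genes. The members not past 2-fold included PPP1R15A, the phosphatase subunit that reverses eIF2 alpha phosphorylation (509 to 720 units), and the kinases EIF2AK3 (367 to 404) and EIF2AK4 (495 to 635).

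Among 13 tested ATF4 targets in redox and growth control 5 rose and none fell, with a median of 0.92. Besides CHAC1, DDIT4 and STC2 these were SESN2, a sestrin that lowers mTORC1 activity when amino acids are short (103 in the control, 62.0 at 0 h, 126 at 6 h and 341 at 12 h, 2.71-fold), and JDP2, an AP-1 repressor (285 to 571). Of the other 8 members 4 were below 0 without passing 2-fold, the lowest of them KLHL24 (99.2 to 57.0) and TXNIP, an inhibitor of thioredoxin (3434 to 2391).

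Fewer members of the metabolic side of the pathway passed 2-fold. ASNS, which makes asparagine, was at 643 in the control, 580 at 0 h, 617 at 6 h and 1764 at 12 h, and rose 2.86-fold. CBS, the first enzyme that turns homocysteine towards cysteine, was dim and went from 36.2 to 74.2, and its call was lost with a higher floor (0.80) and with the mean of its probe sets (0.17). The pair made 2 of 11 tested genes of serine, asparagine and one-carbon synthesis that rose, none fell, and the list median was 0.33. SLC7A11, the cystine importer, was at 421, 313, 610 and 1444 and rose 2.37-fold, and of its 2 other probe sets both were higher at 12 h and 1 passed 2-fold. It was the 1 riser of 10 tested amino acid transporters (none fell, median 0.35). SLC38A2, a neutral amino acid carrier, was at 6329 and 9927. None of 17 aminoacyl-tRNA synthetases, which charge tRNAs with their amino acids, passed 2-fold, while 14 of them were higher at 12 h and their median was 0.28. The largest difference there was 0.92 in CARS1 (2197 to 4163).

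Over these 4 lists of the ATF4 pathway without the synthetases, 13 of 44 tested genes rose (29.5%, against 1.36% of all genes), none fell, and 37 of 44 were above 0, as were 44.5% of all genes. The lists were drawn up with earlier results of these arrays known, so their counts describe the pathway and are not independent evidence of its direction. Control probes for RNA quality and hybridization gave mixed readings beside these rises. The ratio of 3' to 5' signal was 0.910 at 6 h and 0.939 at 12 h for GAPDH, and 1.21 and 1.23 for ACTB, and the 18 probe sets for spiked hybridization controls had a median difference of 0.003. The 24 probe sets for spiked poly(A) RNA had a median of -0.22 and ran from -1.10 to 0.52. Array controls for 28S ribosomal RNA went from 755 to 379 units for the 5' part and from 2269 to 1158 for the middle part, beside 463 and 975 in the control culture, and that for the 5' part of 18S went from 50.2 to 23.6. Those for the 3' and middle parts of 18S went from 73.6 to 56.1 and from 41.0 to 43.8. That for the 3' part of 28S, below the floor on both arrays, went from 9.82 to 11.2. The largest of the differences in the control probes are as large as the smaller rises, and their part in the results was not tested.

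**Figure D2:**
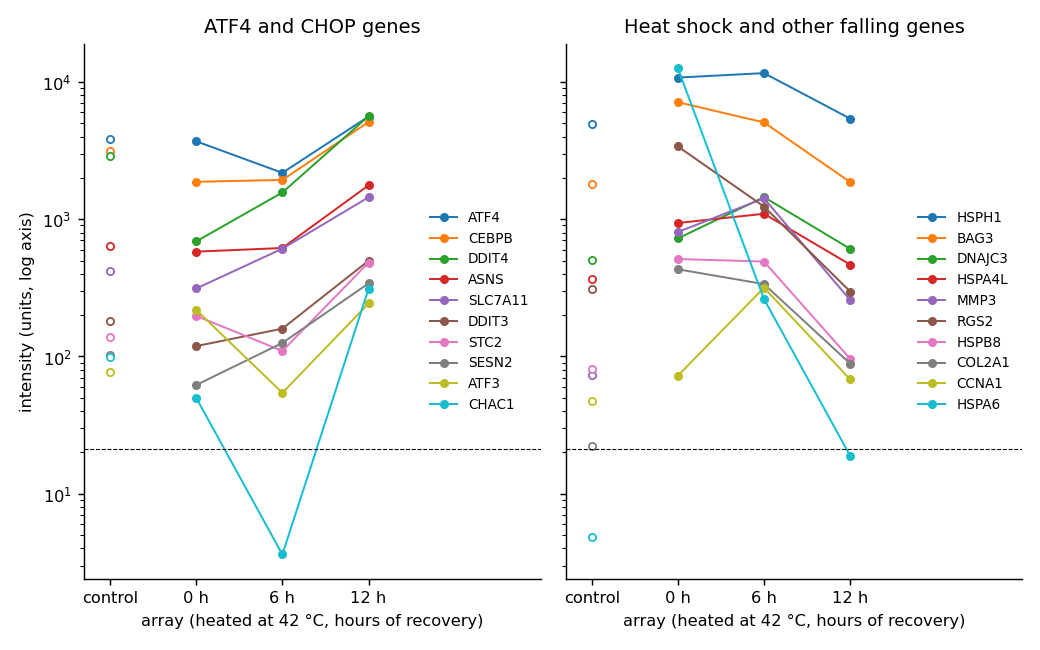
Intensity (log axis) of 10 ATF4 and CHOP pathway genes (left) and of 10 genes that fell between 6 and 12 h (right) on the unheated control array (open points) and on the 42 °C arrays at 0, 6 and 12 h (filled points joined by lines), 1 array per point with no error bar. The dashed line is the floor; all 10 genes on the left are highest at 12 h among these 4 arrays, where ATF4 is at 5596 units, and HSPA6 on the right ends below the floor at 18.9.

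ATF4 and its partners bind the CARE motif, a composite of C/EBP and ATF half-sites, searched here as TGATGNAA on both strands of RefSeq promoters of build GRCh38.p14 (250 bases before to 50 after the gene's start). It was in the promoter of 3 of the 12 risen genes of these lists that have one in the table. The windows recorded for these 12 genes span the 250 bases before the start alone. The 60-base stretches around it are shown because those 3 genes (ATF3, CHAC1 and ASNS) are among the risers, with the motif in capitals; each runs 5' to 3' on the gene's strand, and in CHAC1 the motif lies on the opposite strand. They lie at chr1:212565190-212565249 (plus strand) for ATF3, chr15:40953236-40953295 (plus strand) for CHAC1 and chr7:97872443-97872502 (minus strand) for ASNS.
ATF3: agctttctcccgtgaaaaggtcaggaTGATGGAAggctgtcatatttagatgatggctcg
CHAC1: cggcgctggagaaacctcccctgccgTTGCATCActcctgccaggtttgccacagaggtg
ASNS: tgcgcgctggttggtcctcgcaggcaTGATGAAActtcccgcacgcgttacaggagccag
The motif starts 191 bases before the gene's start in ATF3, 209 in CHAC1 and 68 in ASNS. It was in 3.67% of all 27305 promoters in the table and in 1.92% of the 10212 promoters of tested genes. Among the risen genes 7 of 138 promoters held it (5.07%), and among the fallen genes 4 of 113 (3.54%). In the same 4 lists, 4 of 26 tested genes that did not rise also held it (15.4%). The cyclic AMP response element TGACGTCA was in 0 of the 12 promoters and in 3.28% of those of tested genes. A match is only a run of letters, and the absence of one says only that the letters are not in this window.

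The ER unfolded protein response list split. HERPUD1, which helps to pass misfolded proteins from the ER to degradation, was at 742 in the control, 2728 at 0 h, 498 at 6 h and 1475 at 12 h and rose 2.97-fold. XBP1, a transcription factor of the response, was at 1398, 1637, 1077 and 2464 and rose 2.29-fold. With the mean of the probe sets, of which each gene has a second below the floor on both arrays, the differences were -0.11 for HERPUD1 and 0.40 for XBP1. The XBP1 level at 12 h was the highest of the 4 arrays, while that of HERPUD1 was highest at 0 h. DNAJC3, an ER cochaperone that also inhibits the eIF2 alpha kinases, fell 2.38-fold from 1448 to 608, and its 3 other probe sets all passed 2-fold downwards as well. HSPA5, the main ER chaperone BiP, was at 8410 in the control, 11818 at 0 h, 14974 at 6 h and 7758 at 12 h, just short of 2-fold. MANF, a secreted ER stress protein, went from 2475 to 1193 and was 2-fold lower as deposited but not under all scalings, and SDF2L1, an ER chaperone subunit, went from 2153 to 1197. Of 19 tested members 2 rose and 1 fell, against 1.36% and 1.21% of all genes, and 14 were below 0, with a median of -0.21. HERPUD1 and XBP1 thus rose where the folding protein DNAJC3 fell, and the 12 h values of HSPA5, MANF and SDF2L1 were below their 6 h values without passing.

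Chaperones of the heat shock response were lower at 12 h in part. HSPA6, an HSP70 made almost only under stress, was at 4.82 units in the control, 12566 at 0 h, 262 at 6 h and 18.9 at 12 h. It fell at least 12.3-fold and ended below the floor, and its other probe set went from 109 to 35.1. HSPB8, a small heat shock protein, was at 80.8 in the control, 513 at 0 h, 491 at 6 h and 96.3 at 12 h, a fall of 5.11-fold. Its other probe set, dim, went from 25.8 to 20.5 and did not pass. BAG3, the cochaperone that works with HSPB8 in selective autophagy, was at 1816, 7118, 5070 and 1864 and fell 2.72-fold. HSPA4L and HSPH1, both HSP110-type exchange factors of HSP70, fell 2.34-fold (1095 to 467) and 2.15-fold (11590 to 5402). At 12 h both BAG3 (1864, against 1816) and HSPH1 (5402, against 4976) were close to the control level.

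Other heat shock genes did not pass 2-fold over the interval. HSPB1, the small heat shock protein HSP27, was at 1116 in the control, 7209 at 0 h, 7115 at 6 h and 6176 at 12 h, a difference of -0.20. Its level at 12 h was still well above the control, unlike that of HSPB8. DNAJB1, the HSP40 partner of HSP70, was at 881, 9949, 1354 and 1299 and so had come down before 6 h. Counted by family, 3 of 8 tested HSP70 and HSP110 genes fell, against 1.21% of all genes, and none rose (median -0.51). Of the 11 genes on that list only these 8 had a probe set of their own, and HSPA8 had no value. In the small heat shock protein list with BAG3, 2 of 5 genes fell and none rose (median -0.20). None of 11 HSP40 cochaperones, 10 genes of HSP90 and its cochaperones, 10 mitochondrial chaperones and proteases or 7 subunits of the TRiC chaperonin passed 2-fold under all scalings, with medians of -0.14, -0.27, -0.12 and -0.07. DNAJA4, an HSP40 cochaperone, went from 96.4 to 45.9 and passed as deposited alone. CHORDC1, an HSP90 cochaperone, had the largest difference of its list at -0.81 (2971 to 1695 units). HSF1 itself was at 298 and 271. The HSF1 binding core GAANNTTC, searched on both strands, was in 7 of 113 promoters of fallen genes (6.19%), in 4.80% of those of tested genes and in 6.87% of all promoters.

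**Figure D3:**
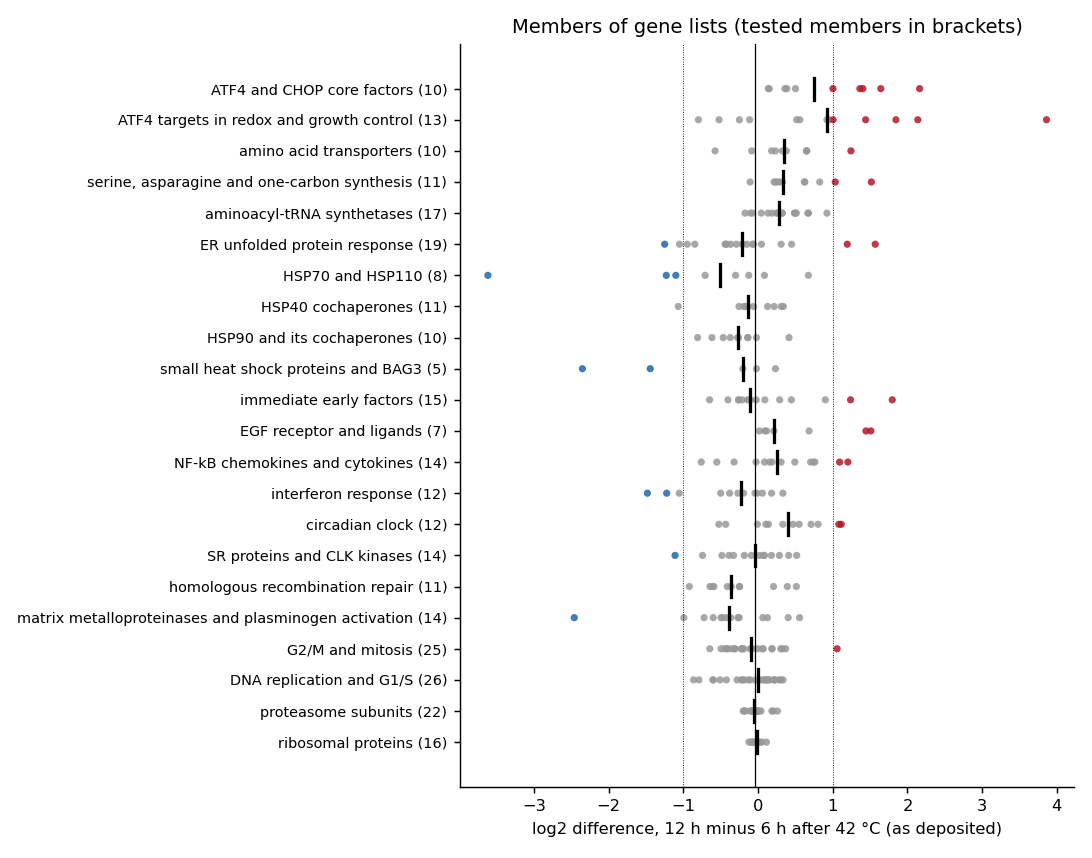
Difference of each tested member (points) of 22 gene lists, in log2 units of 12 h minus 6 h as deposited (x axis), with the number of tested members in brackets. Red points rose and blue points fell under all 3 scalings, the thick bars are list medians, the solid line is the median of all genes (-0.04) and the dotted lines mark 2-fold; the ATF4 lists lie to the right, with medians of 0.75 and 0.92, and the HSP70 and HSP110 list to the left at -0.51.

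Several of the largest falls were of genes that had been high at 0 h as well as at 6 h. A 6 h level above that at 12 h is set by the choice of genes that fell, so it is not a result. MMP3, a metalloproteinase that cuts extracellular matrix, was at 73.1 in the control, 806 at 0 h, 1419 at 6 h and 258 at 12 h and fell 5.51-fold. RGS2, which shortens G protein signals, was at 312, 3390, 1236 and 297 and fell 4.16-fold. COL2A1, the chain of type II collagen, was at 22.3, 432, 337 and 88.8 and fell 3.79-fold. PNLDC1, an exonuclease that trims piRNAs, was at 3.71, 319, 109 and 21.03 and fell at least 5.10-fold. MMP3 and COL2A1 were still above the control at 12 h, while RGS2 was not. ID2, which blocks DNA binding by helix-loop-helix factors, fell at least 2.34-fold from 50.1 to 11.1, a call lost with a floor at 2 times the median (-0.23) and with the mean of its probe sets (-0.24).

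A second set of falls was of genes low in the control, low at 0 h and high at 6 h alone. The choice of large falls favours a high value on the 6 h array, and with 1 array such a peak has no replicate. CCNA1, a cyclin, was at 47.6 in the control, 72.4 at 0 h, 317 at 6 h and 68.1 at 12 h and fell 4.65-fold. RFX7, a transcription factor, was at 69.6, 78.9, 248 and 52.2 and fell 4.74-fold. CAVIN2, a coat protein of caveolae, was at 37.2, 28.7, 188 and 41.7 and fell 4.499-fold. TGFBR3, a coreceptor of TGF-beta, was at 49.9, 63.9, 191 and 49.4 and fell 3.86-fold, and MYCL, a MYC family factor, fell 5.03-fold from 146 to 29.0. For CAVIN2, TGFBR3 and RFX7 the other probe set above the floor also passed 2-fold, and CCNA1 has 1 probe set, while for MYCL the other went from 36.4 to 21.2 and did not pass. ALMS1-IT1, a transcript from an intron of ALMS1, was at 36.9, 32.9, 178 and 41.2 and fell 4.31-fold. PELI2, a ubiquitin ligase of the interleukin-1 receptor pathway, was at 17.2, 36.3, 86.7 and 19.6 and fell at least 4.06-fold.

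LINGO3 and FKBP8 were above the control at 6 h and below it at 12 h. LINGO3 was at 60.1, 45.8, 101 and 14.96 and fell at least 4.75-fold. FKBP8 was at 43.9, 45.7, 88.0 and 16.8 and fell at least 4.12-fold, on 1 of 3 probe sets, and its other probe set above the floor went from 60.3 to 42.2 without passing. For PELI2, LINGO3 and FKBP8 the call was lost with the mean of the probe sets (-0.46, 0 and 0).

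RBM14, a protein of nuclear paraspeckles, was at 669 in the control, 1169 at 0 h, 1209 at 6 h and 328 at 12 h and fell 3.69-fold. It was the 1 faller of 4 tested genes of the list of cold-inducible RNA-binding proteins (none rose, median -0.60), a list it sits in by choice and not by known induction by cold. The cold-inducible members CIRBP (978 to 1512) and RBM3 (2034 to 1478) differed in opposite directions without passing. TRA2A, a splicing regulator, fell 2.16-fold from 1779 to 823, but of its 3 other probe sets above the floor only 1 was lower. It was the only one of 14 SR proteins and CLK kinases to pass (median -0.04), beside 1.21% of all genes that fell.

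Growth factor and inflammatory genes held some of the other rises. HBEGF, a ligand of the EGF receptor, was at 1496 in the control, 739 at 0 h, 1027 at 6 h and 2796 at 12 h and rose 2.72-fold. ERRFI1, which inhibits that receptor, was at 1291, 1280, 741 and 2112 and rose 2.85-fold. They were 2 of 7 tested genes of the receptor and its ligands, beside 1.36% of all genes that rose and 1.21% that fell. None of the 7 fell and all were above 0 (median 0.21), as were 44.5% of all genes. KLF4, an epithelial zinc finger factor, was at 556, 639, 418 and 1453 and rose 3.47-fold, and KLF6 rose 2.36-fold from 696 to 1641. These were the only risers of 15 tested immediate early factors, none of which fell (median -0.10), and FOS, the best-known of them, was at 33.5 and 13.3. Of 14 NF-kB chemokines and cytokines 2 rose and none fell (median 0.25), the chemokine CCL20 by 2.30-fold (70.8 to 163) and the cytokine LIF by at least 2.13-fold (17.2 to 45.5), which was 0.091 with the higher floor. IL6 was at 254 and 289, and CXCL8, which attracts neutrophils, at 3113 and 5193. None of 11 NF-kB feedback regulators, 9 dual-specificity MAP kinase phosphatases or 6 genes of the interleukin-1 family passed under all scalings (medians 0.15, 0.27 and -0.06). IL1RL1, the receptor of interleukin-33, went from 217 to 99.7 and passed as deposited and after the median shift but not after quantile normalization.

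The interferon response list held falls and no rise. IFIT2 was at 89.5 in the control, 20.4 at 0 h, 177 at 6 h and 63.3 at 12 h and fell 2.79-fold, and IFIT1 fell 2.34-fold from 148 to 63.3. Both encode antiviral proteins that bind foreign RNA. IFIT3, from the same gene cluster, went from 499 to 240 and passed as deposited but not under all scalings. Of 12 tested members 2 fell, against 1.21% of all genes, and the median was -0.23. The lack of a rise among 12 genes is near the 1.36% of all genes that rose. ISG15, a ubiquitin-like interferon target, was at 700 and 611.

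Other rises were scattered over functions. SLFN5, a member of the Schlafen family, was at 253 in the control, 86.4 at 0 h, 81.2 at 6 h and 252 at 12 h and rose 3.11-fold, with all 5 other probe sets above the floor higher and 4 of them past 2-fold. KRCC1 rose 3.44-fold from 105 to 362, and its 2 other probe sets also passed. TNFSF18, a ligand of the TNF family, rose 3.64-fold from 28.3 to 103. EEF2KMT, which methylates elongation factor 2, was at 113, 64.2, 14.6 and 88.9 and rose at least 4.16-fold. The rest of the largest rises were of LINC02806 (at least 4.39-fold), C5orf34 (4.18-fold), TPRN (3.503-fold), SAMD12 (3.08-fold) and LINC00205 (2.999-fold). With the mean of the probe sets the differences of LINC02806, SAMD12 and LINC00205 were 0.74, 0 and 0.089, short of 2-fold. SLFN5 (252, against 253 in the control) and SAMD12 (175, against 174) were lower at 6 h than in the control and near it again at 12 h. A low 6 h value is favoured by the choice of large rises, so this dip is not a result of its own.

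Of 12 clock genes tested 2 rose, PER2 by 2.12-fold (85.04 to 180) and NFIL3 by 2.16-fold (293 to 634), none fell and the list median was 0.40, beside 1.36% of all genes that rose. With the mean of its probe sets, of which the other was below the floor, PER2 was at -0.063. PER2 is a repressor of the circadian loop, and NFIL3 is a leucine zipper repressor that also acts outside it. BMAL1, the activator of the loop, went from 139 to 204. HMMR, a hyaluronan receptor active in mitosis, rose 2.08-fold from 1793 to 3732. It was the 1 riser of 25 mitotic genes, against 1.36% of all genes, and their median was -0.10.

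Over all genes 1.36% rose and 1.21% fell, so a list of 8 to 26 genes with no call is near that share. Most other functions showed no member past 2-fold under all scalings. This held for 26 genes of DNA replication, 16 ribosomal proteins, 18 genes of ribosome biogenesis, 21 of oxidative phosphorylation, 22 proteasome subunits and 13 of polyubiquitin and autophagy, with medians from -0.05 to 0.01. It also held for 13 basal squamous keratins and adhesion genes (median -0.09), 10 squamous differentiation genes (-0.14), 10 mesenchymal factors (0.05), 11 genes of homologous recombination repair (-0.36), 8 metallothioneins (0.14), 9 histone genes (0.05), 13 genes of cholesterol synthesis (-0.13) and 17 of hypoxia and glycolysis (-0.05). Neither the 10 pro-apoptotic nor the 8 anti-apoptotic genes tested passed (medians -0.06 and -0.01). SESN2 was the 1 riser of 16 p53 targets and SLC7A11 the 1 riser of 13 NRF2 targets, with no fall in either list (medians -0.03 and -0.11). The 4 genes of the TXNIP and arrestin-domain list did not pass (median -0.57). Of 14 metalloproteinases and genes of plasminogen activation MMP3 fell (median -0.40), of 7 collagens COL2A1 fell (0.12) and of 11 ID and TGF-beta genes ID2 fell (-0.04), and none of these 3 lists had a riser. GAPDH and ACTB, common reference genes, differed by -0.06 and -0.01.

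**Figure D4:**
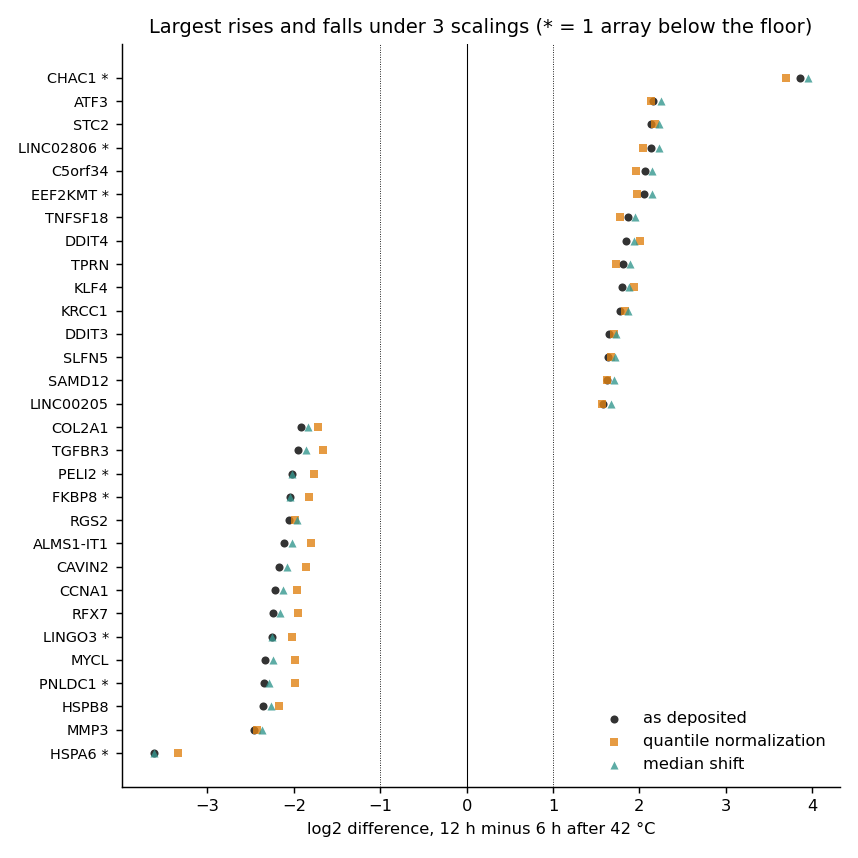
The 15 largest named rises and 15 largest named falls, with the log2 difference of 12 h minus 6 h after 42 °C (x axis) as deposited (circles), after quantile normalization (squares) and after the median shift (triangles). Asterisks mark genes below the floor on 1 array, whose difference is a bound; every gene shown lies past 2-fold (dotted lines) under each scaling, from 3.86 for CHAC1 to -3.62 for HSPA6 as deposited.

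At the 2-fold limit, TRIB3 and JDP2 were just inside on the higher side (958 to 1920 and 285 to 571 units), and DIDO1 (184 to 368) and DHX32 (546 to 1086) just outside. On the lower side LINC01210 (139 to 69.7) and AKR1C2 (781 to 390) were just past 2-fold as deposited, and NRARP (224 to 112) and MMP10 (676 to 339) just short. Many genes are read by more than 1 probe set. Of 101 other probe sets of risen genes that were above the floor, 79 differed in the same direction and 23 passed 2-fold, and of 125 of fallen genes, 103 and 35 did.

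The 44 °C cultures gave the same interval on arrays of their own, so the comparisons share no array. Between 6 and 12 h after 44 °C, 146 of 12891 tested genes rose (1.13%) and 153 fell (1.19%), with a median of -0.23. Of the 161 tested genes that had risen after 42 °C, 6 rose and 2 fell there. Of the 141 that had fallen after 42 °C, 5 fell and 8 rose. None of the 42 tested genes of the 4 ATF4 lists rose or fell at 44 °C, and 11 were above 0, near the 26.5% of all genes that were (median -0.24, beside -0.23 for all genes). The difference between the temperatures was not tested.

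Named genes are given side by side. CHAC1 was at 18.02 units at 6 h and 28.6 at 12 h after 44 °C, ATF4 at 3458 and 2569, DDIT4 at 1247 and 1092, DDIT3 at 112 and 115, and ASNS at 521 and 433. ATF3 was at 582 and 746 after 44 °C, above both of its 42 °C values. Its level differed little over that interval while it rose 4.48-fold at 42 °C. HSPA6 was at 7596 and 8788 after 44 °C, and BAG3 at 4378 and 5148, while at 42 °C both fell. HSPB8 went from 118 to 314 at 44 °C, MMP3 from 168 to 422, CCNA1 from 45.6 to 116 and COL2A1 from 337 to 836, which are rises, where each fell at 42 °C. The dimmer HSPB8 probe set went from 38.2 to 41.0 at 44 °C.

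**Figure D5:**
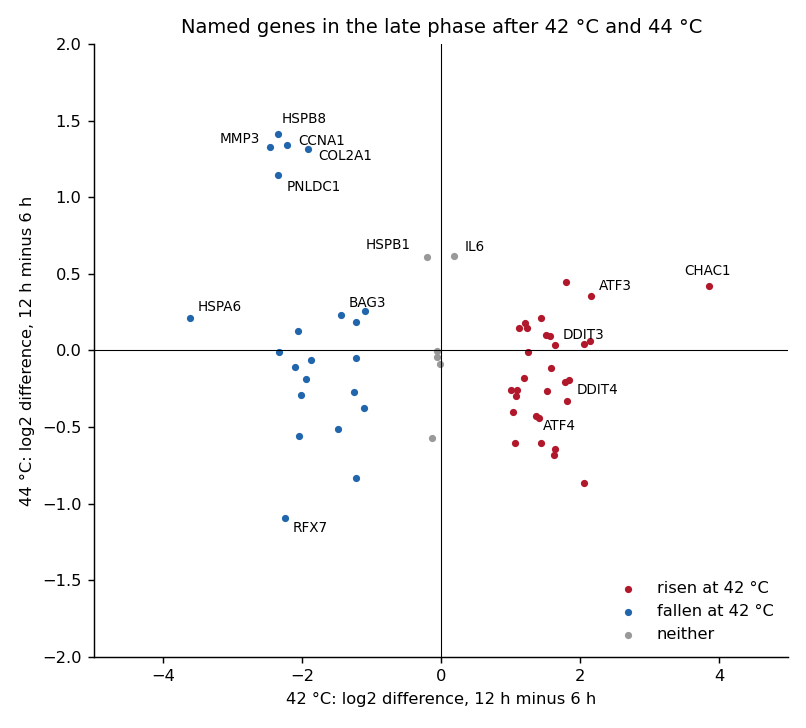
Difference of 12 h minus 6 h in log2 units, as deposited, after 42 °C (x axis) and after 44 °C (y axis) for the named genes tested at both temperatures, 1 array per condition and no error bars. Genes risen at 42 °C are red and fallen ones blue. CHAC1 is at 3.86 and 0.42, both bounds, and MMP3 at -2.46 and 1.33. Most genes shown were named for their difference at 42 °C, so the plot does not compare the temperatures over all genes.

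Markers of the cell type were steady over the interval. The 7 measured squamous markers of 11 listed, among them the keratins KRT5 and KRT14, were above the floor on both arrays and summed to 51386 units at 6 h and 48877 at 12 h. Of 7 fibroblast markers COL1A1 alone was above the floor (204 and 222), with sums of 242 and 247. Of 5 endothelial markers PECAM1 alone was (49.1 and 38.4, sums 70.4 and 58.9). Of the 4 measured leukocyte markers 1 was above the floor on each array (CD14 at 26.3 units at 6 h, CD3E at 21.5 at 12 h), with sums of 51.7 and 39.2. PTPRC, the pan-leukocyte marker, was below the floor on both.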

How the data were processed

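From each culture 5 µg of total RNA was labelled, per the labels, for an Affymetrix U133 Plus 2.0 array. The intensity values analysed are those the authors deposited, on a linear scale, for 54675 probe sets on each of 7 arrays. The steps that summarised and scaled them are not given in the sources used here. All 7 columns were used, and 0 were left out.

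Probe sets listing 1 gene (41091) were named from the array's annotation, updated by gene ID with a RefSeq table of GRCh38.p14 (41037 matched). Those with several genes (1801) or none (11721) are not named. A gene was read by its probe set with the highest mean, giving 19775 genes. The floor, the 3 scalings and the 2-fold limit are defined in the report. There is no test, since each condition has 1 array.

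Named were the 15 largest rises and falls among bright genes past 2-fold under all scalings whose other probe sets above the floor moved the same way, up to 4 passing members of each of 45 lists, and 21 fixed genes, of which 20 had a value. This gave 62 genes. Genes outside this rule, such as JDP2, HSPA5, MANF and other list members that did not pass, were chosen once their values had been seen. The comparison, members and lists were chosen with earlier results of these data known. Alternatives tried were quantile normalization over 7 or 2 arrays, the median shift, no floor, a floor at 2 times the median and the mean of a gene's probe sets. Scripts were tested on simulated data. Python 3.11.15, pandas 2.3.3 and numpy 2.4.6 were used.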

Additional observations from a re-analysis of the deposited data

Results flagged for a closer look

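For 10 genes the late phase went past 2-fold in opposite directions after 42 °C and after 44 °C under all 3 scalings, and this difference was not tested, since each condition has 1 array. All values are log2 differences of 12 h minus 6 h, first at 42 °C and then at 44 °C. The metalloproteinase MMP3 was at -2.46 and 1.33, the small heat shock protein HSPB8 at -2.35 and 1.41, the collagen COL2A1 at -1.92 and 1.31 and the cyclin CCNA1 at -2.22 and 1.34. A dimmer HSPB8 probe set did not pass 2-fold at either temperature. PNLDC1, a piRNA trimming enzyme, was at -2.35 and 1.14, and the scaffold protein IQGAP2 at -1.55 and 1.83. LMF1, a lipase maturation factor, was at -1.41 and 1.41, and the zinc finger gene ZNF92 at -1.20 and 1.15. Higher at 42 °C and lower at 44 °C were PNRC1, a nuclear receptor coregulator, at 1.44 and -1.36, and TUBA4B at 1.18 and -1.19. IQGAP2, LMF1, PNLDC1 and TUBA4B were below the floor on 1 array of at least 1 pair, so those differences are bounds. In the same direction at both temperatures were 11 genes, among them the integrin ITGB8, at 478 and 129 units (6 and 12 h) after 42 °C and 118 and 45.1 after 44 °C.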

How the results depend on the processing

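Counts of genes past 2-fold moved with the settings. Higher genes were 171 as deposited, 276 with the 2 arrays quantile normalized alone, 520 with no floor and 85 with a floor at 2 times the median; lower genes were 268, against 155 after quantile normalization over all arrays, 653 with no floor and 175 with the higher floor. Bright higher genes were 85, against 129 with the 2 arrays normalized alone and 48 with the higher floor, and bright lower genes 175, against 93 and 116 under the quantile settings and 109 with the higher floor. The cause of these moves was not tested. Of the 56 named genes called, all stayed past 2-fold in the same direction under both quantile settings, the median shift and no floor, and 53 with the higher floor, where LIF, CBS and ID2 fell short. With the mean of a gene's probe sets 42 did, 12 fell short (LINC02806, SAMD12, LINC00205, SLC7A11 at 0.96, XBP1, HMMR at 0.98, CBS, TRA2A at -0.14, ID2, PELI2, FKBP8 and LINGO3) and 2 reversed, HERPUD1 at -0.11 and PER2 at -0.063, each having a second probe set below the floor on both arrays that enters that mean. Of the 45 list medians taken relative to all genes, 43 or 44 stayed within 0.1 under each setting but the mean of probe sets, where 32 did. Those that moved elsewhere were the ATF4 and CHOP core factors, from 0.80 to 0.56 and 0.55 under the quantile settings, the ATF4 redox and growth targets, from 0.97 to 0.79 and 0.80 there and 0.79 with the median shift, and the small heat shock proteins with BAG3, from -0.16 to -0.28 with no floor and -0.78 with the higher floor. The genes tested differ between scalings (12601 as deposited, 12879 after quantile normalization). Over members tested as deposited, quantile normalization took the median of the core factors from 0.75 to 0.87. That of the redox and growth targets went from 0.92 to 1.03, and that of all genes from -0.04 to 0.04. The sign changed for 1 and 3 list medians near 0 under the quantile settings and for 7 with the mean of probe sets, by most for the collagens (0.17 to -0.31), the ID and TGF-beta genes (0.005 to -0.15) and the SR proteins and CLK kinases (0.008 to -0.14). Dim genes, near the floor, are read least well.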

Other observations

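Genes were also grouped by the form of their symbol, a grouping made after the values were seen. One group is the zinc finger genes with a ZNF symbol. Of 351 tested between 6 and 12 h after 42 °C, 12 fell (3.42%, against 1.21% of all genes) and 2 rose, with a median of -0.30 as deposited and -0.18 after quantile normalization, beside -0.04 and 0.04 for all genes. Among the 224 bright ones 11 fell. At 44 °C their median was -0.15, beside -0.23 for all genes. Another is symbols holding -AS or -IT before a digit, starting with LINC and a digit, or ending in HG, forms typical of long non-coding RNAs. Of 446 tested, 16 rose (3.59%, against 1.36%) and 4 fell, with a median of 0.08, and 98 of them were bright.

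RNA45SN5, the precursor of ribosomal RNA, went from 345 units at 6 h to 133 at 12 h on its brighter probe set and from 46.6 to 20.5 on the other. Of 13522 probe sets with several genes or none, 4774 reached the floor on either array, and 56 were higher and 112 lower past 2-fold under all 3 scalings. The AP-1 motif TGANTCA, searched on both strands, was in 10 of 113 promoters of fallen genes (8.85%), 6 of 138 of risen genes (4.35%) and 4.79% of those of tested genes.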
